A study of Mus musculus with 12 samples.

Results

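Immediate early genes are the genes that a cell switches on within minutes of a stimulus without first having to make new protein. The group described here held 10 of them, Fos, Fosb, Jun, Junb, Egr1, Atf3, Ier2, Nr4a1, Myc and Btg2, each taken by its symbol. They were chosen with earlier results of these data known. All 10 were among the 29564 genes of the deposited count table, and all 10 were among the 14333 that had enough counts to be tested. Poly(A) RNA was sequenced from the left ventricle of 12 wild-type mice of strain C57BL6, 4 in each of 3 groups, and every mouse gave 1 library. Control + Veh mice had non-failing hearts and received vehicle. HFpEF + Veh mice had been given a high-fat diet and L-NAME (an inhibitor of nitric oxide synthase), which models HFpEF, heart failure in which the ejection fraction is kept, and received vehicle. In the HFpEF + TYA-018 group, mice on that diet and L-NAME received 15 mg/kg of the HDAC6 inhibitor TYA-018 by mouth. The series title describes a single dose and the methods a harvest hours after it, whereas the treatment protocol of the labels describes daily dosing over weeks. The libraries of Control + Veh are called C1 to C4, those of HFpEF + Veh are V1 to V4, and those of HFpEF + TYA-018 are T1 to T4. They follow the animal numbers, which run together within each group. The labels used here give no sex, age, sequencing batch or order in which hearts were taken, and the methods describe male C57BL/6J mice bought at one age, so an effect of that order or of a batch and of the group cannot be told apart.

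The proteins of the Fos and Jun families pair to form AP-1, a transcription factor whose activity is set by kinase cascades such as the MAPK pathway. Egr1, Nr4a1, Atf3 and Myc encode other transcription factors of the first wave, and several of their target genes feed back on the signal that induced them. In the heart these genes respond to stretch, adrenergic and angiotensin signalling, ischaemia and handling of the tissue, and their transcripts are short-lived, so that a level reflects the minutes to hours before the tissue was frozen.

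The 12 libraries held estimated counts of 61.2 to 83.9 M (M, 1e6 counts), and mitochondrially encoded genes took 35.4% to 47.7% of them. T1 stood apart as the deepest library, with the lowest mitochondrial share and with deposited effective gene lengths that lay, at the median, -0.16 on the log2 scale from their mean over all libraries. The 10 genes together took 0.0174% of counts in C1, the lowest share, and 0.0400% in C3, the highest. Levels below are CPM, the counts in 1e6 of a library, after scaling by the trimmed mean of M-values, and 1 CPM stood for 57.6 to 94.2 counts. Because the tissue was bulk ventricle, fewer cells of a type and less RNA per cell cannot be told apart.

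Per kilobase of the longest annotated transcript, which allows genes to be compared, Jun stood highest at 21.1 ± 2.84 CPM per kb (mean ± SD, n = 12 libraries). Ier2 followed at 20.8 ± 6.12, Btg2 at 19.1 ± 5.36, Junb at 14.2 ± 4.29 and Egr1 at 9.39 ± 6.32 CPM per kb. Fos was at 5.01 ± 2.79, Atf3 at 2.68 ± 0.747, Myc at 1.64 ± 0.331 and Nr4a1 at 0.446 ± 0.200 CPM per kb, and Fosb was lowest with libraries listed at 0. Neighbours at the top did not separate, since Jun exceeded Ier2 in 6 of 12 libraries and Ier2 exceeded Btg2 in 9 of 12. Btg2 exceeded Junb, Egr1 exceeded Fos and Myc exceeded Nr4a1 in 12 of 12 libraries, whereas Junb over Egr1, Fos over Atf3 and Nr4a1 over Fosb held in 10 of 12 and Atf3 over Myc in 11 of 12. The order depended on the length used. In the deposited TPM values, which use the authors' effective lengths, Ier2 led with a mean of 12.5 TPM, ahead of Jun at 6.74, Junb at 6.24 and Btg2 at 3.46 TPM. For Fosb and Btg2 the deposited effective length was 2.34 and 1.96 times the longest transcript, and for Myc it was 0.387 times.

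Among the AP-1 genes, Fos encodes the leucine zipper protein c-Fos, which binds DNA only as a partner of Jun proteins. Fos (GRCm38 chr12:85473890-85477273, plus strand) was at 3.97, 13.1, 25.9 and 13.7 CPM in C1 to C4, at 6.36, 14.2, 6.79 and 9.65 CPM in V1 to V4, and at 11.9, 7.50, 7.28 and 6.36 CPM in T1 to T4. Its lowest and its highest library were both controls, and the other groups lay inside that range. Fosb, which encodes a close relative of c-Fos, was listed at 0 in 7 of 12 libraries. The libraries with counts were C3 at 2.03, C4 at 1.18, V2 at 1.25, V3 at 1.00 and T1 at 0.658 CPM, from 61.9 to 129 estimated counts. Every group thus had libraries at 0 and counts above it, which in the treated group came from T1 alone. A fitted fold change of Fosb would depend on the prior count, so none is given here.

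Jun encodes c-Jun, the partner that gives AP-1 its DNA binding, and was the steadiest gene of the family. Jun (chr4:95049034-95052222, minus strand) was at 55.4, 51.8, 83.9 and 72.8 CPM in C1 to C4, at 63.7, 69.2, 71.1 and 77.7 CPM in V1 to V4, and at 67.0, 59.0, 66.5 and 70.3 CPM in T1 to T4. The controls spanned all the other libraries. Junb encodes a Jun protein with weaker activating capacity. Junb (chr8:84974484-84978718, minus strand) was at 17.6, 29.8, 41.2 and 28.7 CPM in C1 to C4, at 23.9, 38.1, 16.8 and 19.2 CPM in V1 to V4, and at 28.2, 22.2, 21.4 and 22.0 CPM in T1 to T4. C3 and V2 were high, V3 and C1 were low, and the treated libraries fell between. Jun shared 6.39% of its 31-base words with Junos, an antisense gene, and Junb shared 6.51% with Prdx2 on the opposite strand, so part of their counts depends on how the authors' counting assigned such reads.

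Atf3 encodes a stress-induced factor that pairs with Jun proteins and can repress transcription. Atf3 (chr1:191170296-191218039, minus strand) was at 5.74, 2.47, 4.45 and 4.52 CPM in C1 to C4, at 5.26, 4.74, 4.91 and 7.98 CPM in V1 to V4, and at 5.07, 7.92, 5.28 and 5.57 CPM in T1 to T4. C2 was low and V4 and T2 were high, and the remaining libraries of all groups lay together.

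Egr1 encodes a zinc finger factor induced through serum response factor and its partners. It had the widest range of the abundant members, at 19.6, 50.8, 105 and 39.5 CPM in C1 to C4, at 67.4, 76.9, 25.5 and 25.6 CPM in V1 to V4, and at 43.9, 17.3, 17.6 and 16.0 CPM in T1 to T4. T2, T3 and T4 were the lowest of all 12 libraries, while T1 lay among the controls and the HFpEF + Veh libraries. Nr4a1 encodes an orphan nuclear receptor and was the only member besides Fosb with libraries below 1 CPM. Nr4a1 (chr15:101254269-101274795, plus strand) was at 0.475, 0.372, 1.31 and 1.50 CPM in C1 to C4, at 0.842, 0.489, 1.22 and 1.23 CPM in V1 to V4, and at 1.34, 1.57, 2.11 and 1.21 CPM in T1 to T4. The 2 highest libraries were treated, and the treated group still overlapped both others.

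Myc encodes a factor that drives growth and ribosome production and pairs with Max. Myc (chr15:61985391-61990374, plus strand) was at 5.25, 4.14, 3.11 and 3.65 CPM in C1 to C4, at 4.61, 4.40, 3.49 and 4.17 CPM in V1 to V4, and at 3.65, 2.29, 3.23 and 3.90 CPM in T1 to T4. T2 was lowest and the rest lay close together. Ier2 encodes a small nuclear protein of the first wave. Ier2 (chr8:84661331-84662852, minus strand) was at 19.2, 37.8, 46.2 and 29.4 CPM in C1 to C4, at 34.1, 48.7, 21.5 and 24.6 CPM in V1 to V4, and at 36.9, 28.5, 26.1 and 26.6 CPM in T1 to T4. V2 and C3 were high and C1 was low. Btg2 encodes an antiproliferative protein, also a target of p53. Btg2 (chr1:134075170-134079120, minus strand) was at 33.8, 46.1, 85.5 and 47.3 CPM in C1 to C4, at 55.1, 75.1, 47.0 and 53.8 CPM in V1 to V4, and at 56.3, 43.6, 41.3 and 42.3 CPM in T1 to T4. C3 and V2 again stood highest.

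The first comparison asked what the HFpEF model changed. None of the 10 genes passed the test between HFpEF + Veh and Control + Veh, although edgeR's quasi-likelihood test called 21.2% of all tested genes at an adjusted p under 0.05. At an unadjusted p under 0.05 the count was also 0 of 10, beside 35.5% of all genes, and DESeq2 called 0 of 10, beside 17.9% of genes with a count in any library. No member had groups that did not overlap, against 23.5% of all tested genes. The largest differences were those of Fos, from 14.2 ± 9.00 CPM in controls to 9.25 ± 3.60 in HFpEF + Veh (SD, n = 4), with a log2 fold change of -0.62 ± 0.44 (SE, edgeR adjusted p = 0.338), and of Atf3, from 4.30 ± 1.35 to 5.72 ± 1.52 CPM, with 0.41 ± 0.25 (edgeR adjusted p = 0.255). Junb was at -0.26 ± 0.27 and Egr1 at -0.14 ± 0.52, and the log2 fold changes of Jun, Nr4a1, Myc, Ier2 and Btg2 lay between -0.04 and 0.12. The median over the members was 0.0026 beside -0.01 over all genes. Single controls moved these values. Without C1 the log2 fold change of Fos was -0.93 (edgeR adjusted p = 0.0545) and the median over the members -0.20, and without C3 they were -0.15 and 0.25.

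The second comparison asked what TYA-018 changed in the model. Again 0 of 10 genes passed the edgeR test, where 19.3% of all genes did, 0 of 10 had an unadjusted p under 0.05, where 33.2% of all genes did, and DESeq2 called 0 of 10 and 16.4% of genes with a count. Separate groups were found for 0 members and for 25.1% of all genes. Egr1 differed most, from 48.8 ± 27.2 CPM in HFpEF + Veh to 23.7 ± 13.5 CPM with the drug (SD, n = 4). Its log2 fold change was -1.04 ± 0.53 (SE, unadjusted p = 0.0737 and adjusted p = 0.194 by edgeR's test). Leaving out 1 library at a time moved it from -1.52 without T1 (edgeR adjusted p = 0.0971) to -0.73. Nr4a1 went from 0.945 ± 0.353 to 1.56 ± 0.397 CPM, with 0.72 ± 0.44 (edgeR adjusted p = 0.277), and Myc from 4.17 ± 0.483 to 3.27 ± 0.706 CPM, with -0.35 ± 0.19 (edgeR adjusted p = 0.217). Btg2 was at -0.33 ± 0.24, and Fos, Jun, Junb, Ier2 and Atf3 lay between -0.16 and 0.06. On the log2(TPM + 1) scale, where the median of all genes was itself shifted by 0.17, the differences of Fos, Jun, Junb, Myc, Ier2 and Btg2 had the opposite sign, and limma called Nr4a1 alone, with a difference of 0.12 that was smaller than that shift (adjusted p = 0.0457).

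The third comparison asked what still separated treated HFpEF hearts from controls. edgeR called 0 of 10 members and 5.86% of all genes, and 1 member, Egr1, had an unadjusted p under 0.05, as did 22.5% of all genes. DESeq2 called 0 of 10 and 7.25% of genes with a count, and no member had separate groups, against 14.8% of all genes. Egr1 was at 53.7 ± 36.5 CPM in controls and 23.7 ± 13.5 CPM with the drug (SD, n = 4). Its log2 fold change was -1.17 ± 0.53 (SE, unadjusted p = 0.0470 and adjusted p = 0.216 by edgeR's test), and it was -0.62 without C3. Fos was at -0.77 ± 0.44, Nr4a1 at 0.76 ± 0.44 and Atf3 at 0.47 ± 0.25, with edgeR adjusted p of 0.330, 0.337 and 0.290, and Fos was at -0.31 without C3. Jun was at -0.01 ± 0.13. The 3 comparisons share groups, so the recurrence of Egr1 and Fos among the larger values is not independent.

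**Figure D1:**
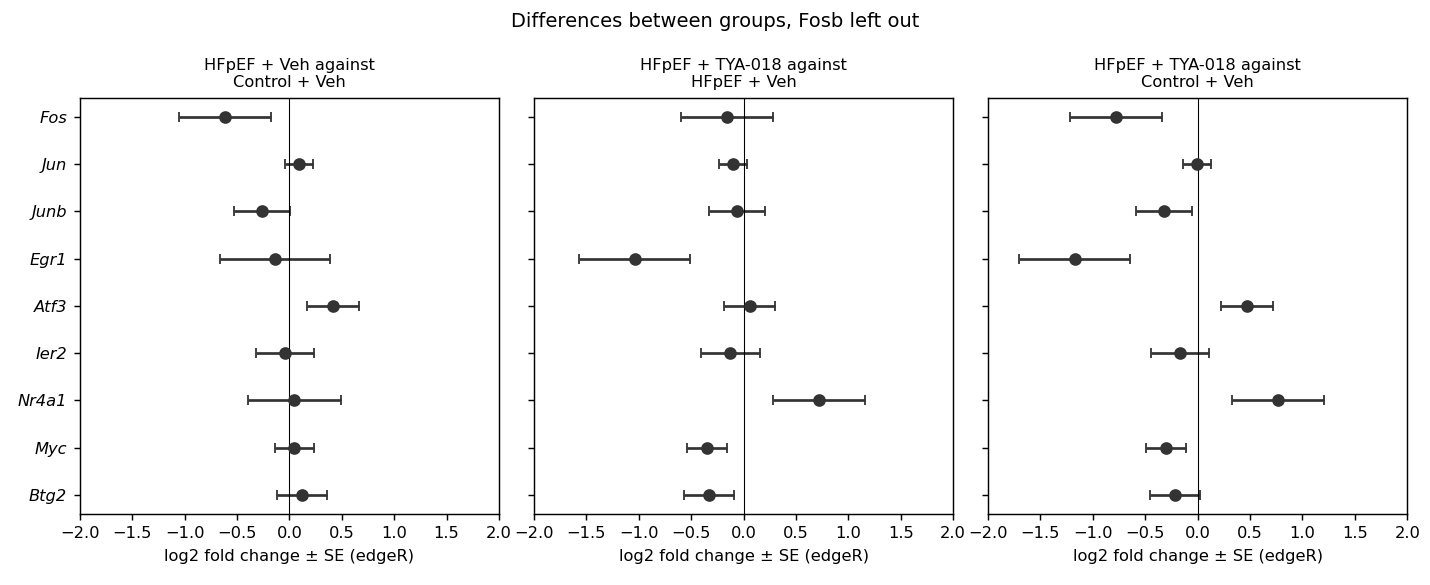
Log2 fold change of 9 immediate early genes in the 3 comparisons, points for the edgeR estimate and bars for 1 SE. Fosb is left out because 7 of its 12 libraries are listed at 0. The widest bars belong to Egr1 and the narrowest to Jun in all 3 comparisons.

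The spread between mice of 1 group was wide for most of these genes. The SD of log2 CPM within groups, pooled over the 3 groups, had a median of 0.445 over the 10 members beside 0.176 over all tested genes, and 10 of 10 members lay above that all-gene median. On log2(TPM + 1) 8 of 10 did, since Nr4a1 and Fosb, whose TPM are near 0, fell to the percentiles 15.8 and 10.8. Egr1 was at 0.861 and Fos at 0.753, the percentiles 93.1 and 91.7 of all genes. Nr4a1 followed at 0.692, Ier2 at 0.458, Junb at 0.432, Atf3 at 0.396 and Btg2 at 0.382, while Myc at 0.285 and Jun at 0.210 were the steadiest. The value of Fosb, 2.91, is set by its libraries at 0. Against the spread that edgeR fits to genes of the same abundance, the biological coefficient of variation was 4.51 times as large for Egr1, 2.54 for Fos, 2.43 for Ier2, 2.17 for Junb and 2.13 for Btg2. For Jun, Atf3, Nr4a1 and Myc the ratio was 1.21, 1.10, 1.03 and 0.76, so the spread of Nr4a1 lay close to that fitted for genes of its abundance.

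On log2 CPM the controls varied most for most members. The SD was largest in Control + Veh for 8 of 10 members, compared with 41.9% of all tested genes. In the deposited TPM, taken without logs, it was largest in HFpEF + TYA-018 for Jun, Junb, Atf3, Ier2, Nr4a1, Myc and Btg2. The share of all genes with that order was not counted. For all of these but Atf3, T1 was the highest treated library. Jun was at 11.3 TPM in T1 against 6.10 to 7.20 in T2 to T4, and Btg2 at 6.21 against 2.46 to 3.38 TPM. Only for Fos, Fosb and Egr1 was the SD of TPM largest in controls. Fos had an SD of log2 CPM of 1.12 in controls, 0.531 in the HFpEF + Veh group and 0.395 in the treated group, and its highest control was 6.52 times its lowest. For Egr1 these SDs were 0.999, 0.866 and 0.689, and the ratio of the extreme controls was 5.36. For Junb they were 0.507, 0.517 and 0.186, and for Ier2 0.546, 0.526 and 0.232. The median over the members was 0.552, 0.522 and 0.315 in the 3 groups, where all genes had 0.180, 0.155 and 0.153. The difference in spread between groups was not tested.

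**Figure D2:**
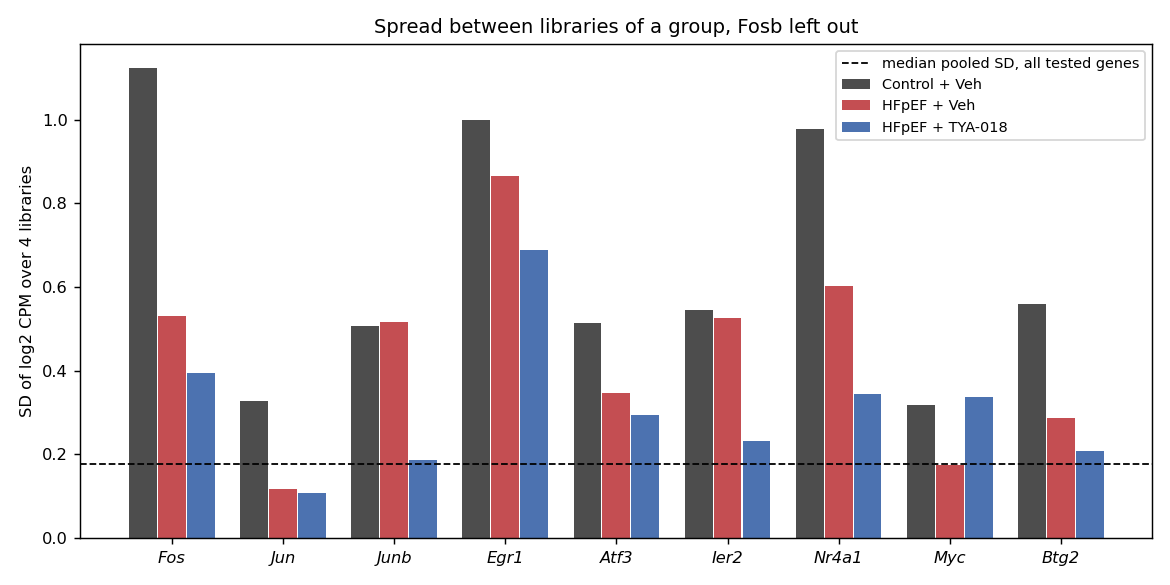
Standard deviation of log2 CPM within each group for 9 immediate early genes, with a line at the median pooled SD of all tested genes. Fosb is left out because of its libraries at 0. Fos and Egr1 show the widest spread, and most members are widest in Control + Veh.

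Libraries that were high in 1 of these genes were high in several others. After subtracting group means from log2 CPM, 9 of the 45 pairs of members had a correlation with an adjusted p under 0.05 (Pearson's r, two-sided exact permutation of libraries within groups, n = 12 libraries, Benjamini-Hochberg over 45 pairs), and 12 pairs an unadjusted p under 0.05. All 9 lay among Fos, Junb, Egr1, Ier2 and Btg2, whose 10 pairs had r from 0.771 to 0.980. Junb and Ier2 were the closest, with r = 0.980 and Spearman's rho = 0.993 (exact permutation, adjusted p = 0.00326 for each). Egr1 and Ier2 had r = 0.942 and Junb and Egr1 r = 0.913 (exact permutation, adjusted p = 0.00521 for each). Fos and Egr1 had r = 0.771 and were the exception (exact permutation p = 0.0161, adjusted p = 0.0726). By Spearman's rho 3 pairs passed, Junb with Ier2, Junb with Egr1 and Egr1 with Ier2, all among the 9. The other 35 pairs, each with Jun, Fosb, Atf3, Nr4a1 or Myc, had r from -0.578 for Nr4a1 with Myc to 0.742 for Jun with Nr4a1, a median of -0.047 and no adjusted p under 0.156 by the exact permutation test. Jun had r = 0.573 with Fos and 0.589 with Btg2, and was low in C1 and high in C3 as the 5 genes were. Its lowest library was C2, at -0.32 from the group mean of log2 CPM, where 4 of the 5 genes lay above theirs. In V2 and T1, where all 5 lay above, Jun was at -0.02 and 0.03.

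These 5 are called linked here, a grouping made from the correlations themselves. Among them, leaving out the 2 libraries farthest from the median of the first gene left r at 0.561 or above, and leaving out any 1 library left it at 0.665 or above. The number of pairs that passed fell from 9 to 5 without V2 and to 5 without T1. For all pairs of genes with at least 1 CPM the median within-group r was 0 and the 90th percentile 0.51. In C3, V2 and T1 all 5 linked genes were above their group mean, and in C1, V3, T2, T3 and T4 all 5 were below it. C2 had 4 of 5 above, V1 3, C4 2 and V4 1. For Egr1, Junb and Btg2, T1 stood far above T2 to T4, which by itself puts those libraries below the group mean. The low positions of T2 to T4 are thus not separate from the high one of T1. C3 and V2, at 63.2 and 62.3 M counts, were not deep libraries, whereas T1 was the deepest. The part of depth in this pattern was not tested.

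**Figure D3:**
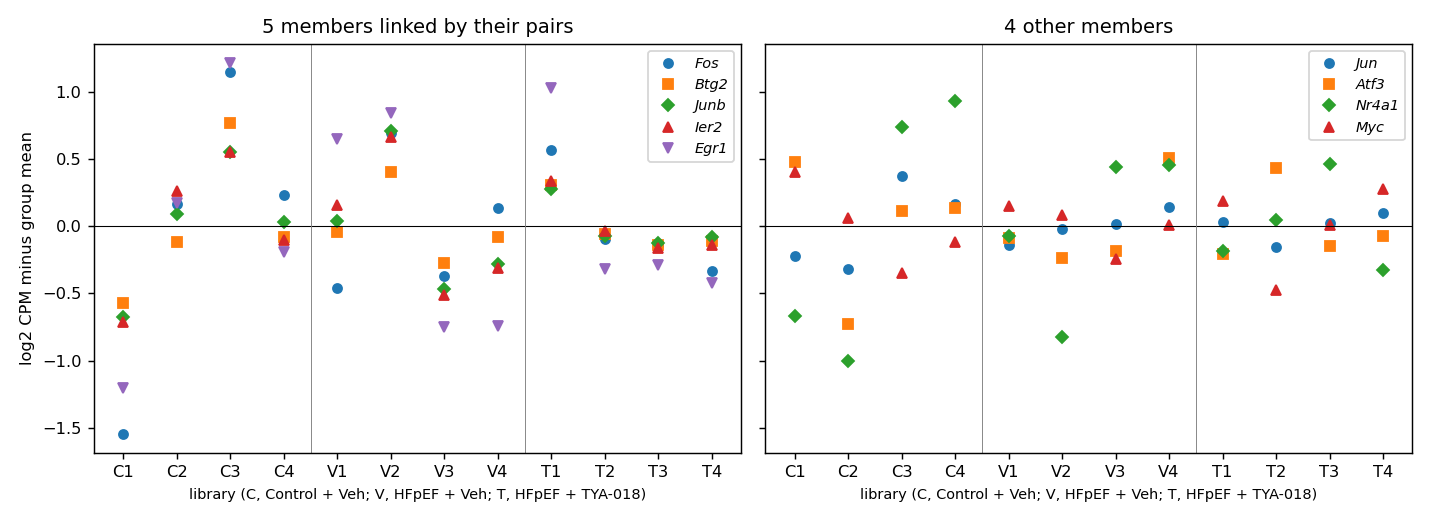
Log2 CPM minus the mean of the group for 9 immediate early genes in the 12 libraries, Fosb left out. Fos, Junb, Egr1, Ier2 and Btg2 lie above 0 together in C3, V2 and T1 and below 0 together in C1, V3, T2, T3 and T4, while no pair with Jun, Atf3, Nr4a1 or Myc passed the test on this scale.

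**Figure D4:**
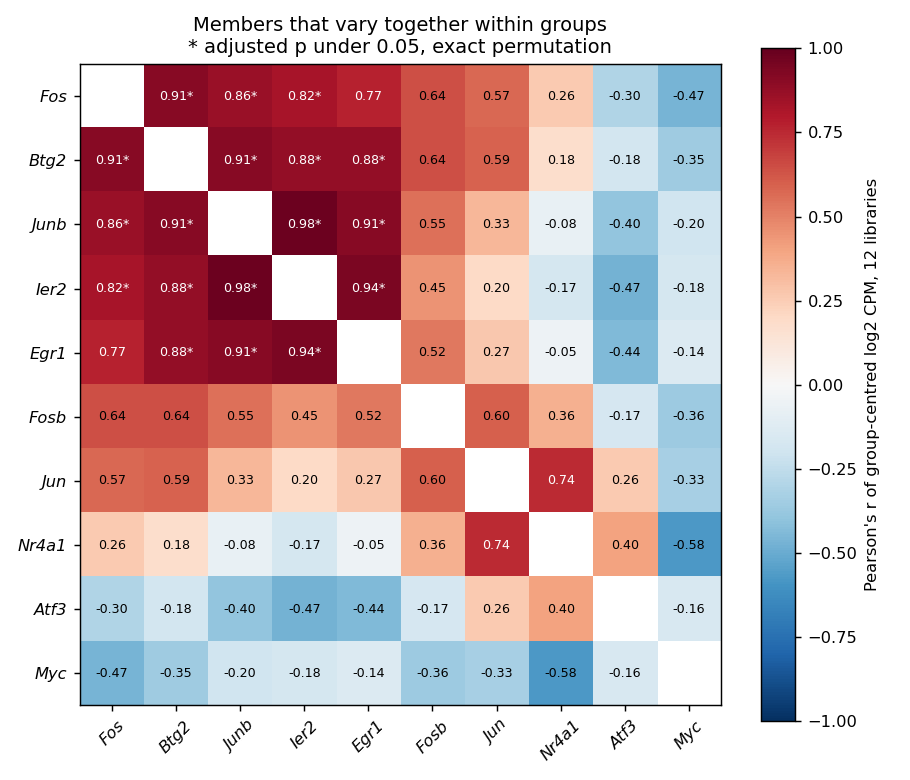
Pearson's r of group-centred log2 CPM for each pair of immediate early genes over 12 libraries. The block of Fos, Junb, Egr1, Ier2 and Btg2 runs from 0.771 to 0.980, and the other 35 pairs from -0.578 to 0.742.

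Because the linked genes varied together, the sequence around their start sites is shown for those of the 5 with a RefSeq promoter window, Fos, Junb and Btg2. It is also shown for Nr4a1 and Jun, none of whose pairs passed the test on log2 CPM. On log2(TPM + 1) the pair of Fosb and Jun did pass (exact permutation, adjusted p = 0.0213). Windows run from 250 bases before the RefSeq start to 50 bases from it on GRCm38.p6 and were found for 7 of 10 members. That start is also the start of the GENCODE coordinates given above for Fos and Jun. For Junb and Btg2 the GENCODE start, at 84978718 and 134079120, lies inside the window and downstream of the RefSeq start. For Nr4a1 it lies at 101254269, upstream of the whole window. Capitals mark the motif matches described after them.

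Fos: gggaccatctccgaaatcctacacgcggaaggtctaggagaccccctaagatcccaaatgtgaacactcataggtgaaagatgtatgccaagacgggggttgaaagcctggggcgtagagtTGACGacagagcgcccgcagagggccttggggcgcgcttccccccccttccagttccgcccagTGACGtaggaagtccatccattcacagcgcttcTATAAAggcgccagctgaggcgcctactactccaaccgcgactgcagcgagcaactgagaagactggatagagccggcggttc

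Junb: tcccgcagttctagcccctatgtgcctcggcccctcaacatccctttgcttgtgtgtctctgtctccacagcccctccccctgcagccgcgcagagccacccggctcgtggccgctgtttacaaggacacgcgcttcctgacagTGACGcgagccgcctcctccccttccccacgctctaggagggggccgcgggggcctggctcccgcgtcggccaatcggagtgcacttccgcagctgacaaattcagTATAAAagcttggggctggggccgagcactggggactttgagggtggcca

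Btg2: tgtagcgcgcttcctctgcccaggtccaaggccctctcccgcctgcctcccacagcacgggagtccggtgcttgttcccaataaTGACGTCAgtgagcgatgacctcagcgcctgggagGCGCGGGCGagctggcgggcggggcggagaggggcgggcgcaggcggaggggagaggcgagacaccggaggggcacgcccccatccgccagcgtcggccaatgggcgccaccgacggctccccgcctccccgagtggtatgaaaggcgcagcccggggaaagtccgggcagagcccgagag

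Jun: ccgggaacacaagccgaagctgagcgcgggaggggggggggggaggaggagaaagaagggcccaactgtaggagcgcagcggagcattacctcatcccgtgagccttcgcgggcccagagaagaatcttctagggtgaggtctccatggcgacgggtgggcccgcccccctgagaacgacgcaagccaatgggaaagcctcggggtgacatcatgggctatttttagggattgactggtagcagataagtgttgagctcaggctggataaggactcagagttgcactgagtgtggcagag

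Nr4a1: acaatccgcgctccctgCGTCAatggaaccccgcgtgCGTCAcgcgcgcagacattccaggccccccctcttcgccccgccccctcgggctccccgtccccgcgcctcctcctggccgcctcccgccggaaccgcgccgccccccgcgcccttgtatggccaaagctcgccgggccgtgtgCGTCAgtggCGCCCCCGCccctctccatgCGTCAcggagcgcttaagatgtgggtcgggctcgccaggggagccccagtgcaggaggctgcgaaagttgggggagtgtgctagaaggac

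The windows lie at chr12:85473640-85473939 (plus strand) for Fos, chr8:84978699-84978998 (minus) for Junb, chr1:134079106-134079405 (minus) for Btg2, chr4:95052173-95052472 (minus) for Jun and chr15:101266596-101266895 (plus) for Nr4a1. On both strands, the core of the cAMP response element, TGACG, which lies inside the full element TGACGTCA, was in 6 of the 7 member windows and in 20.8% of 32851 windows. It was in Fos, Junb, Btg2 and Nr4a1 and also in Fosb and Atf3, and the window of Jun held none of the motifs searched. The full element was in Btg2 and in 1.79% of windows, the TATA box letters TATAAA in Fos and Junb and in 13.6%, and the EGR site GCGNGGGCG in Btg2, Nr4a1 and Fosb and in 5.55%. The TATAAA match began at base -33 from the RefSeq start in Fos and at base 1, the RefSeq start itself, in Junb. The GENCODE start of Junb lies downstream of that base, at 84978718, so these positions are not measured from like starts. The AP-1 site TGANTCA, in 7.81% of windows, and the serum response element, in 1.63%, were in none of the 7. Sequence farther than 250 bases before the start was not searched, and Egr1, Ier2 and Myc had no window. The absence of a motif therefore holds for these windows only. All matches are matches of letters and say nothing about which factor was bound.

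The genes outside the group whose profile over the 12 libraries was most like the mean of the 10 members were Ints9 (r = 0.84), Pspc1 (0.83), Fbxo4 (0.83), Ftsj2 (0.76), Prrg2 (0.75), Pja1 (0.75), Pim2 (0.73) and Tstd3 (0.72), out of 11773 genes. Within groups they were Irx2 (0.89), Pim2 (0.88), Gmpr (0.87), Fbxo4 (0.87), Pja1, Amigo3, Tldc1 and Apmap (0.86 each). The mean profile leaned on Fosb, and without it 2 of 8 and 1 of 8 names were shared.

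In the lists of other genes of the pathway, the share called is to be read beside the 21.2%, 19.3% and 5.86% of all genes called in the 3 comparisons. Of 49 further immediate early genes, 11 were higher and 3 lower in the model than in controls, 2 higher and 11 lower with TYA-018 than with vehicle in the model, and 2 higher in treated than in control hearts. These counts are 28.6%, 26.5% and 4.08% of the list. Their medians were 0.21, -0.22 and -0.03 on the log2 scale, and values for single genes below are log2 fold changes. DESeq2 called 17 of the 49 in the model and limma on log2(TPM + 1) called 0, while with TYA-018 they called 17 and 7. Sgk1, a kinase induced by corticosteroids, was at 73.5 ± 10.1, 139 ± 12.1 and 78.2 ± 5.21 CPM in control, HFpEF and treated hearts (SD, n = 4), higher by 0.92 in the model (edgeR adjusted p = 4.1e-04) and lower (-0.83) with the drug. Hbegf, a growth factor shed from the membrane, was at 5.58 ± 0.428, 10.8 ± 2.07 and 8.30 ± 1.07 CPM. Klf4, a zinc finger factor, was higher in the model by 0.72 and Cebpb, a leucine zipper factor, lower (-0.47). Ier3, linked to cell survival, was higher in treated than in control hearts by 0.66 (edgeR adjusted p = 0.016). Of 12 relatives of AP-1 and ATF factors, 5 (41.7%) were higher in the model and 2 (16.7%) were lower with TYA-018. Maff, a small Maf protein, was higher in the model by 0.52 and lower with TYA-018 (-0.67), and Jdp2, a Jun partner, by 0.49 and -0.48.

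Genes that carry the signal to these promoters were described in the same way. Of 31 genes of the MAPK and serum response pathway, 3 were higher and 1 lower in the model, 3 higher and 5 lower with TYA-018, and 2 higher in treated than in control hearts, or 12.9%, 25.8% and 6.45%. Srf, the serum response factor itself, was at 29.2 ± 2.36 CPM in controls, 42.4 ± 6.13 in the model and 38.9 ± 1.80 in treated hearts (SD, n = 4), with 0.54 in the model (edgeR adjusted p = 0.0029) and 0.42 in treated against control hearts. Elk3, a partner of Srf, was at 0.39 and -0.44 in the first and the second comparison, and the kinase Rps6ka1 at 0.55 and -0.52, whereas Rps6ka2 was higher with TYA-018 by 0.39. Of 18 feedback genes, 3 were higher and 1 lower in the model (22.2%) and 3 were lower with the drug (16.7%), among them Nab1, a corepressor of Egr1, at 0.37 and -0.49, and Spry2, an inhibitor of receptor signalling, at 0.30 and -0.26. Dusp1, a phosphatase of MAP kinases and itself an immediate early gene, was at 0.63 with TYA-018 and missed the threshold (edgeR adjusted p = 0.0652). Of 21 ligands and receptors, 9 were higher and 3 lower in the model (57.1%), and 3 were higher and 6 lower with the drug (42.9%). Edn1, the vasoconstrictor endothelin, was lower with TYA-018 (-1.08) and the mechanosensitive channel Piezo1 (-0.50).

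Lists tied to single members gave the following. Of 13 genes of the integrated stress response, in which Atf3 acts, 7 were higher and 1 lower in the model (61.5%). Gdf15, a circulating stress factor, was at 2.58 and Mthfd2, an enzyme of folate metabolism, at 1.59, while Atf3 itself did not pass. With TYA-018 1 of the 13 was called, higher than with vehicle (7.69%), and 3 were higher in treated than in control hearts (23.1%). Of 14 p53 targets, genes that the tumour suppressor induces as it does Btg2, 4 were higher in the model (28.6%) and 2 lower with TYA-018 (14.3%), led by the cell cycle inhibitor Cdkn1a at 1.23 and -1.02. Of 12 genes of the MYC network, 3 were higher in the model and 3 lower with the drug (25% each), including Mxd4 at 0.42 and -0.47 and Max, the partner of Myc, at -0.39 with the drug. Of 16 cardiac stress genes, 8 were higher and 1 lower in the model (56.2%) and 6 lower with TYA-018 (37.5%), and Nppb, the natriuretic peptide BNP, was at 1.41 and -1.70. The lists share genes such as Maff, Sgk1, Hbegf and Cdkn1a.

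Lists that report the state of the animal or tissue gave the following. Of 15 glucocorticoid-induced genes, 4 were higher in the model (26.7%) and 6 lower with TYA-018 (40.0%), with Fkbp5, a chaperone of the glucocorticoid receptor, at 0.86 and -0.87. Of 18 clock genes, 1 was higher and 5 lower in the model (33.3%) and 3 higher and 1 lower with the drug (22.2%), and of 13 heat shock genes, 2 were higher in the model (15.4%), with Serpinh1, a collagen chaperone, at 1.12. Cell type markers moved with the groups as well. The summed level of 8 macrophage markers was 100 to 133 CPM in controls, 159 to 206 in the model and 115 to 140 in treated hearts, with 6 of 8 higher in the model. The sum of 7 fibroblast markers was 426 to 640, 655 to 907 and 425 to 615 CPM, that of 7 endothelial markers 645 to 832, 837 to 1030 and 631 to 820 CPM, and that of 8 cardiomyocyte markers 28029 to 37905, 25562 to 27787 and 29159 to 32993 CPM. The 7 red cell markers, all higher in the model and all lower with TYA-018, summed to 1557 to 2312, 4798 to 14184 and 2302 to 3580 CPM. Of 6 neutrophil markers 2 were lower in the model, with a median log2 fold change of -1.45, and the summed level of the list was 4.44 to 12.4, 2.15 to 5.61 and 2.36 to 6.80 CPM. Of 6 lymphocyte markers 1 was lower in the model (median -0.57), and of 7 mural markers 1 was higher (median 0.047). Of 4 atrial markers 1 was lower and of 6 nerve and glia markers 1 was higher in the model. Of 3 adipocyte markers 1 was lower with TYA-018 and 2 were higher without being called, with a median log2 fold change of 1.09. The part of these cells in the levels of the immediate early genes was not tested.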

How the data were processed

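RNA from the left ventricle of 12 mice was sequenced as poly(A) libraries made with a stranded kit. The authors trimmed reads with fastp and quantified them with Salmon 1.6.0 against a mouse GENCODE annotation. The submitters' processing notes name a human build, whereas the symbols are mouse, and the strand setting is not given in the sources used here. They deposited a table of estimated counts per gene, a table of TPM (abundance scaled by length to a fixed total) and a table of effective lengths, in which genes with no reads carry a default length. Estimated counts were rounded to whole numbers.

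Genes were filtered with filterByExpr (minimum count 10), scaled by TMM and fitted over all 12 libraries with edgeR 4.0.16 (R 4.3.3), using two-sided quasi-likelihood tests with Benjamini-Hochberg adjustment over 14333 genes. Log2 CPM used a prior count of 2. DESeq2 1.42.0 and limma 3.58.1 on log2(TPM + 1) served as alternatives, beside another normalization, other filters, effective lengths as offset, removal of mitochondrial and globin genes, 2-group fits and leaving out each library. Pairs of members were tested by exact permutation within groups. The fit was tested on simulated data for HFpEF + Veh against Control + Veh, with changes put into genes drawn at random. It recovered 40.3% of 1.5-fold, 79.1% of 2-fold and 98.5% of 4-fold changes. The share recovered for genes as variable as Egr1 or Fos was not tested. Named genes were all 10 members, of each other list at most the 4 with the smallest p in the comparison described, and the 8 most alike by correlation. The members and lists were chosen with earlier results of these data known. Counting error was small for most members at this depth, with 23.1 estimated counts of Nr4a1 in C2 as the lowest value above 0. The p-values of the group comparisons set a difference between groups against the spread between mice. Those of the pairs set a correlation against reordered libraries within groups. Promoter windows came from RefSeq and gene coordinates from the GENCODE annotation of GRCm38.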

Additional observations from a re-analysis of the deposited data

Results flagged for a closer look

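In 138 groups of 4 libraries, those of the 10 members, of 34 other named genes, of the total counts and of the mitochondrial share, 12 held a lone library whose gap to the rest passed Dixon's critical value for 4 samples. For normally distributed values, chance gives such a library in about 1 group in 20. Of the 12, 5 were members, out of 30 groups of members.

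In HFpEF + TYA-018, T1 stood alone for Egr1 at 43.9 CPM, where T2 to T4 lay at 16.0 to 17.6 CPM, for Junb at 28.2 against 21.4 to 22.2 CPM, for Btg2 at 56.3 against 41.3 to 43.6 CPM, and for Fosb at 0.658 CPM where the others were listed at 0. These share 1 library, the deepest, and so are not independent. For Fosb any count in T1 would have passed, because T2 to T4 were at 0, so its place among the 5 carries no information. The fifth member was Atf3, with V4 at 7.98 CPM and the other HFpEF + Veh libraries at 4.74 to 5.26 CPM.

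Among the other named genes, Srf was lower in T1 at 36.3 CPM against 39.6 to 40.0 CPM. T4 was lower for Maff at 10.7 against 13.3 to 13.6 CPM and higher for Elk3 at 35.7 against 29.1 to 29.5 CPM, and T3 was lower for Agt at 5.88 against 8.41 to 8.77 CPM. C2 was higher for Gdf15 at 0.953 against 0.529 to 0.583 CPM, C1 was higher for Pdk4 at 588 against 434 to 448 CPM, and V1 was lower for Fkbp5 at 106 against 128 to 132 CPM.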

How the results depend on the processing

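The count of members called was 0 in all 3 comparisons under every alternative run but one kind. limma on log2(TPM + 1) and on log2(TPM + 0.1) called 1 member in HFpEF + TYA-018 against HFpEF + Veh, Nr4a1, at differences of 0.12 (adjusted p = 0.0457) and 0.66 (adjusted p = 0.0498), where the median of all genes shifted by 0.17 and 0.34, and without a filter its limma adjusted p was 0.0721. Of 538 recomputed member changes 2 had an adjusted p under 0.05, and 13 of 30 kept their sign throughout. The median of members in that comparison was 0.34 on log2(TPM + 0.1).

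The count of all genes called moved more. For HFpEF + Veh against Control + Veh, 3033 genes became 1445 with effective lengths as offset, 172 on log2(TPM + 1), 301 on log2(TPM + 0.1), 33 without a filter, 394 after removal of mitochondrial and globin genes from TPM, and 1986 to 3992 without 1 library. For HFpEF + TYA-018 against HFpEF + Veh, 2767 became 1217, 1051 without a filter on log2(TPM + 1), 502 after removal, and 1485 to 2729 without 1 library, and the 1280 higher and 1487 lower genes became 2228 and 68 on log2(TPM + 1). For HFpEF + TYA-018 against Control + Veh, 840 became 1499 with DESeq2, 203 with the offset, 9 on log2(TPM + 1), 11 on log2(TPM + 0.1), 11 without a filter, 25 after removal, and 308 to 809 without 1 library. The cause was not tested.

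Members that changed sign, none of them called either way, were as follows. In HFpEF + Veh against Control + Veh, Ier2 was 0.078 with the offset and 0.087 on rescaled TPM, log2(TPM + 1) gave Jun -0.13, Nr4a1 -0.011, Myc -0.094 and Btg2 -0.075, and log2(TPM + 0.1) gave -0.14, -0.057, -0.14 and -0.085. In HFpEF + TYA-018 against HFpEF + Veh, Fos was 0.017 with the offset, log2(TPM + 1) gave Fos 0.34, Jun 0.35, Junb 0.34, Ier2 0.28, Myc 0.076 and Btg2 0.15, log2(TPM + 0.1) gave 0.47, 0.39, 0.40, 0.30, 0.10 and 0.17, and rescaled TPM gave Fos 0.19, Jun 0.12, Junb 0.13 and Ier2 0.030. In HFpEF + TYA-018 against Control + Veh, Jun was 0.0013 with the offset and 0.0028 in a fit of those groups alone, log2(TPM + 1) gave Jun 0.22, Ier2 0.17 and Btg2 0.073, log2(TPM + 0.1) gave 0.25, 0.18 and 0.089, and rescaled TPM gave 0.18, 0.12 and 0.024. Without 1 library, ranges that crossed 0 were, in the first comparison, Btg2 -0.047 to 0.45, Egr1 -0.44 to 0.42, Ier2 -0.31 to 0.17, Jun -0.0044 to 0.23, Myc -0.060 to 0.20 and Nr4a1 -0.21 to 0.40, in the second, Atf3 -0.11 to 0.26, Fos -0.39 to 0.13, Ier2 -0.28 to 0.14 and Junb -0.21 to 0.23, and in the third, Btg2 -0.38 to 0.12, Ier2 -0.36 to 0.040 and Jun -0.10 to 0.13. For Fosb the ranges, -1.24 to 0.52, -8.19 to -0.96 and -8.70 to -1.18, depend on the prior count at libraries with 0 counts and are no measure of its change. For Fos the ranges were -0.93 to -0.15 in the first comparison and -1.08 to -0.31 in the third, and for Egr1 -1.52 to -0.73 in the second and -1.66 to -0.62 in the third.

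The 9 member pairs became 5 to 10 without 1 library and 12 on log2(TPM + 1), which held all 9. The pairs added on that scale were Fos with Egr1, Fos with Fosb (r = 0.832) and Fosb with Jun (r = 0.851). Fosb and Jun lie outside the 5 linked genes, so that grouping depends on the scale. There 5 members were above the 90th percentile of spread, against 4 on log2 CPM. Profiles without Fosb were added after seeing the data. Counts of the other lists moved by over 1.5 times in 12 of 69 cases with DESeq2, 31 with the offset, 47 with limma on log2(TPM + 1) and 2 without mitochondrial and globin genes, and limma called 0 of the 49 further immediate early genes in the model. No paired analysis was possible because each animal number occurs in a single group.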
